A study of Mus musculus with 8 samples.

Results

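Gene expression was compared between mouse embryonic stem cells given an siRNA against a ubiquitin-proteasome component, Psmd14 or Ddb1, and cells that received a control siRNA, with both knockdowns pooled. Arrays are called knockdown arrays by their labels. A gene counted as moved when the pooled difference passed the test across all probe sets and the 4 arrays labelled siPsmd14 or siDdb1 all lay above, or all below, both siNonTarget arrays. Of 18193 genes, 53 met this rule: 49 were higher and 4 were lower on the knockdown arrays. The largest rises were those of Fosl1, Tbx4, Tek, Bin1 and Csn3. The 4 lower genes were Gabbr1, Mobp, Itpka and Gdap10.

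All 8 arrays of the series came from the embryonic stem cell line NG4, reverse transfected with siRNA and taken for RNA 48 h later, with 5 ng of total RNA amplified per array. The groups were siNonTarget (a non-targeting siRNA, the control), siPsmd14, siDdb1 and siSox2, with 2 arrays in each. The labels name no further genotype, drug or selection, and every group, the control included, had been transfected. Nothing in the labels says that the replicates were separate cultures, so the p-values measure only how far these arrays differ within a group, and that difference may be technical.

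The proteasome degrades proteins tagged with ubiquitin. Psmd14 (also called Rpn11) is the deubiquitinase in the lid of its regulatory particle and removes ubiquitin chains from substrates as they enter. Ddb1 is the adaptor that links substrate receptors to the CUL4 ubiquitin ligases, which mark replication, repair and cell cycle proteins for the proteasome. Embryonic stem cells in culture keep the naive pluripotency network on and the genes of differentiated lineages low.

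The targeted transcripts were read first. The Ddb1 signal on the siDdb1 arrays was 22.1% and 46.1% of the control mean, against 116% and 117% on the siPsmd14 arrays. The Psmd14 signal on the siPsmd14 arrays was 90.5% and 82.7% of the control mean, and its difference did not pass the test (limma, siPsmd14 minus control -0.21 on the log2 scale, adjusted p = 0.522). The Ddb1 difference, siDdb1 minus control, was larger at -1.65 but missed the threshold too (limma adjusted p = 0.147). The deposited values thus show a clearly lower Ddb1 signal on both arrays labelled siDdb1 and a small difference for Psmd14. Neither reduction passed the test.

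The 10 embryonic stem cell markers, Pou5f1, Nanog and Sox2 among them, were detected in every group: Pou5f1 stood at log2 12.85 to 13.30 on all 8 arrays. Of the 4 defining fibroblast markers, Col3a1 lay at log2 3.20 to 3.49 on all arrays, Col1a1 at 3.51 to 4.20, Col1a2 at 5.07 to 5.86 and Thy1 at 4.68 to 6.29, and none was called. The mean log2 value over the 22 fibroblast markers measured was 5.70 to 6.27 on all arrays. The 18S ribosomal RNA signal was highest on siPsmd14 replicate 2 (log2 13.59) and siDdb1 replicate 2 (13.28), against 11.62 to 12.47 elsewhere. The 3′ to 5′ difference of Actb was highest on siPsmd14 replicate 1 (0.346 on the log2 scale, 0.096 to 0.214 elsewhere). In such bulk samples, fewer cells of a type and less RNA per cell cannot be told apart.

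In the pooled comparison 96 of 45037 probe sets passed an adjusted p of 0.05 (0.213%), 87 of them higher and 9 lower. These held 58 genes, 0.319% of all genes, and 53 of the 58 were on one side of the controls on all 4 arrays, 0.291% of all genes. Lying on one side was common by itself: 1899 genes (10.4%) were above both controls on all 4 arrays and 2094 (11.5%) were below. The calls rested on few arrays. Without siNonTarget replicate 1, or without siNonTarget replicate 2, limma called 0 probe sets, with 3582 and 4130 at an unadjusted p under 0.05, against 5361 with all arrays. The number of genes on one side was 3 without siPsmd14 replicate 1, 21 without siDdb1 replicate 1, 129 without siPsmd14 replicate 2 and 177 without siDdb1 replicate 2. It was 81 without siSox2 replicate 1 and 81 without siSox2 replicate 2. With the 4 knockdown arrays fitted as 1 group, so that the distance between the knockdowns counted as spread, only Csn3 was called (adjusted p = 0.019), and Fosl1 had an adjusted p of 0.408. All 53 genes kept their direction under every alternative in which they were tested. The rule had placed all 4 knockdown arrays on one side of both controls. Leaving out an array could therefore not reverse a gene, and several settings leave the difference unchanged, so this is a description.

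**Figure D1:**
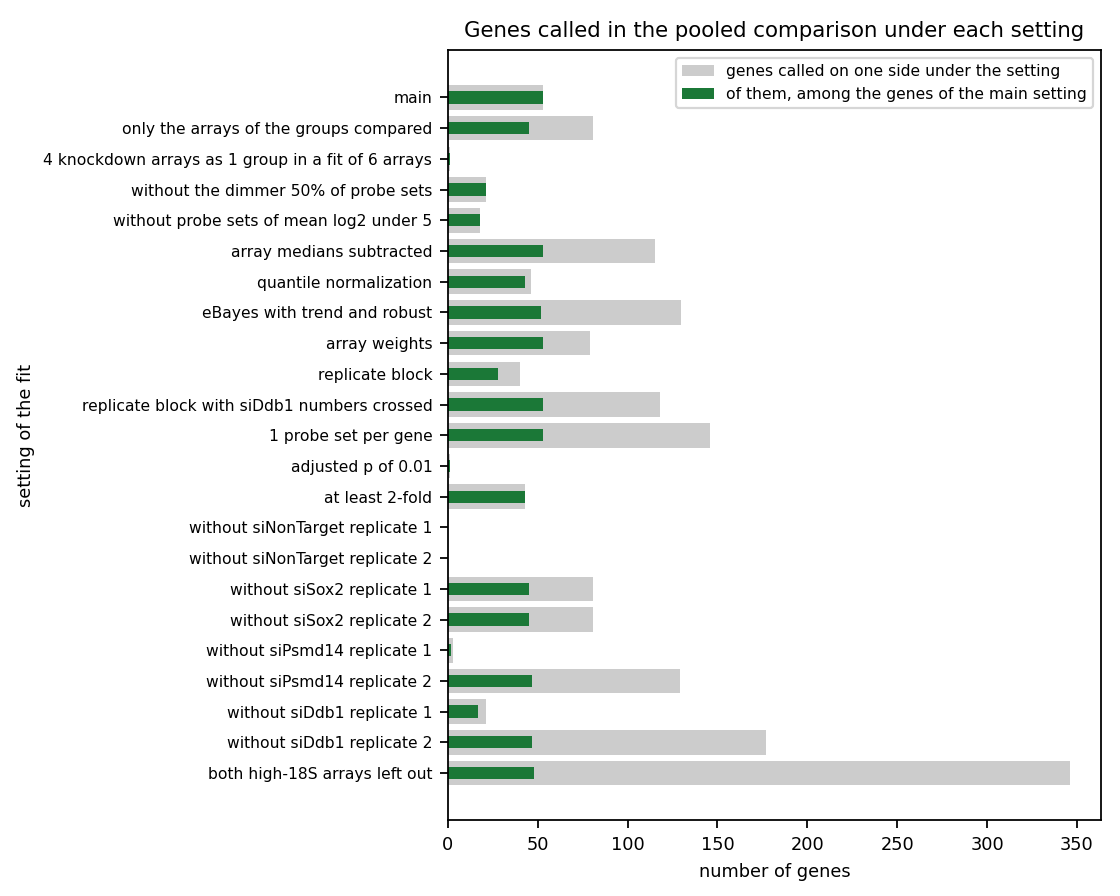
Number of genes (horizontal axis) called and on one side of the controls under each setting of the fit (rows). Grey bars count all such genes and green bars those among the 53 of the main setting, from 0 without siNonTarget replicate 1 or replicate 2 to 346 without both arrays of high 18S signal.

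Among the 49 higher genes the pooled rise ran from 0.75 to 3.08 on the log2 scale with a median of 1.34, and 43 of the 53 genes moved at least 2-fold. The median was 1.66 in siPsmd14 and 0.97 in siDdb1, against -0.01 over all genes in each. The rise was larger in siPsmd14 for 40 of the 49 and larger in siDdb1 for the other 9. On single arrays the median of the 49 was 1.72 and 1.53 for siPsmd14, and 1.16 and 0.79 for siDdb1. The genes just inside the threshold, at an adjusted p of 0.0497, included Krt8 (pooled 1.64) and Arap2 (1.27). Just outside lay Fbp1 (2.25, adjusted p = 0.0502), Eomes (1.10, 0.0527) and Krt19 (1.65, 0.0527).

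**Figure D2:**
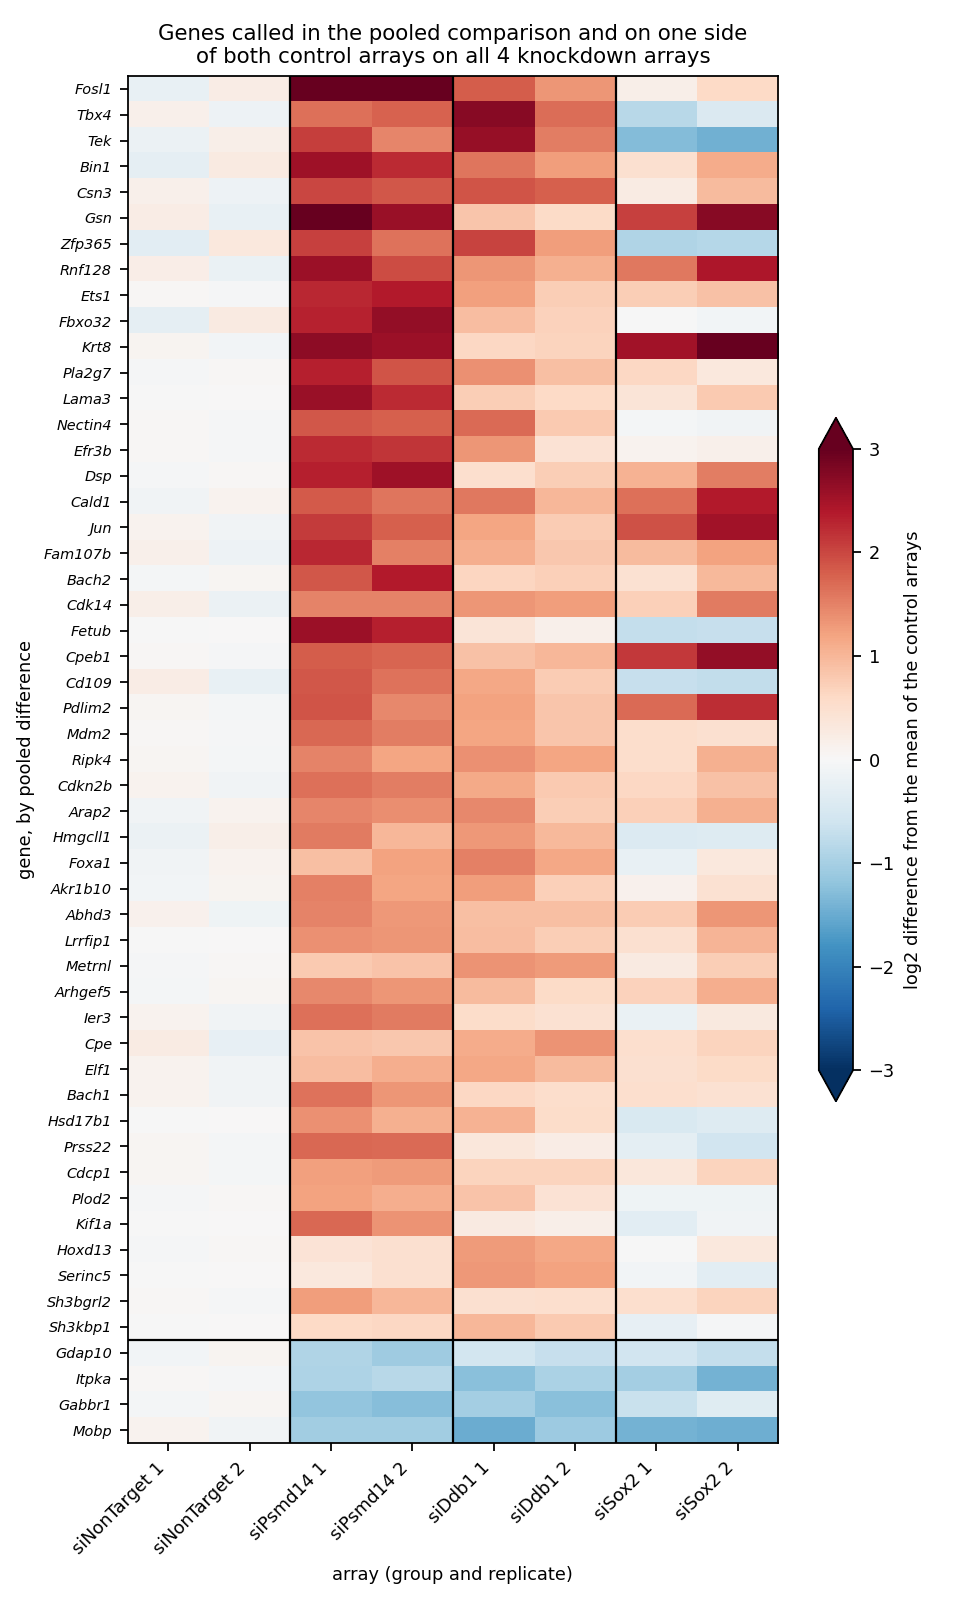
Each row is 1 of the 53 genes called and on one side of both controls, each column 1 array, and the colour gives the log2 difference from the mean of the 2 control arrays (scale cut at -3 and 3). The siPsmd14 columns are deeper than those of siDdb1 for 40 of the 49 higher genes. The siSox2 columns, which enter the fit only through its estimate of spread, hold both colours.

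The genes are described below by what their products do. This grouping was made after their values were seen and was given no test. The higher genes included 9 transcription factors, with a median pooled rise of 1.40 (siPsmd14 1.71, siDdb1 1.05, siSox2 0.48).

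Fosl1 encodes Fra-1, a subunit of the dimeric transcription factor AP-1. Its log2 signal was 3.76 and 4.21 in the controls, 8.69 and 8.46 in siPsmd14, and 5.80 and 5.32 in siDdb1. The 3 groups did not overlap, and both siPsmd14 arrays stood well above both siDdb1 arrays. The pooled rise was 3.08 ± 0.20 (SE) on the log2 scale, with an adjusted p of 0.0026 in limma. It was 4.59 in siPsmd14 and 1.57 in siDdb1 (adjusted p 0.000347 and 0.0882). The deposited values hold no detection calls, and the Fosl1 control mean of 3.98 lay under the controls' median of 4.81, so these sizes rest on a low control signal. The difference between the knockdowns passed the test as well (3.02 ± 0.23, adjusted p = 0.00343). A second Fosl1 probe set was also called, with a pooled rise of 1.90. In siSox2 the Fosl1 signal was 4.15 and 4.59.

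Jun, the AP-1 partner of the Fos proteins, read 6.95 and 6.72 in the controls, 8.93 and 8.63 in siPsmd14, and 8.03 and 7.59 in siDdb1. It was higher on every knockdown array, and the siPsmd14 arrays stood above those of siDdb1. The pooled rise was 1.46 ± 0.20 (limma adjusted p = 0.0423). Unlike Fosl1, Jun was as high on the siSox2 arrays, at 8.75 and 9.35. Of the 14 AP-1 family genes measured, Fosl1 and Jun were called, and 6 (42.9%, beside 10.4% of all genes) lay above both controls on all 4 arrays, none below. The other 4 were Fos, Atf3, Maff and Mafk, with pooled differences of 0.86, 1.53, 0.90 and 0.49 that did not pass. Jund differed by -0.02 and Mafg by 0.18. The list's median was 0.26.

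The AP-1 motif was sought in the RefSeq promoters of the higher genes, because 2 of its subunits are among them. Promoters were read over the 250 bases before the annotated start, in the build GRCm38.p6, on both strands, for TGANTCA, where N is any base. An entry existed for 35 of the 49 higher genes, not for Fosl1. The motif was in 5 of the 35 (14.3%), against 6.70% of 14452 genes of the arrays. The windows below carry it, with the match in capitals, each written 5′ to 3′ on the gene's own strand.
Elf1, chr14:79515614-79515673 (+): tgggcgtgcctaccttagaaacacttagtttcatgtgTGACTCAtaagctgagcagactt
Fam107b, chr2:3713398-3713457 (+): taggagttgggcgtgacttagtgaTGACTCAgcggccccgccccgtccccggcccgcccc
Arap2, chr5:62766314-62766373 (-): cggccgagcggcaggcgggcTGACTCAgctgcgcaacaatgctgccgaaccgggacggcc
Cald1, chr6:34709227-34709286 (+): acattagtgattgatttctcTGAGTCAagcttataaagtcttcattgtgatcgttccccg
Hmgcll1, chr9:76014771-76014830 (+): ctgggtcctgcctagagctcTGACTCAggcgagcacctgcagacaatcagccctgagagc
A match describes these letters and is not a binding site. The antioxidant response element, sought as TGACNNNGC, which BACH1 and NRF2 bind with small Maf partners, was in 7 of the 35 (20%, against 13.5% of all). In Arap2 and Fam107b it overlaps the AP-1 match. A CCAAT box was in 11 of the 35 (31.4%, against 39.4%).

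Ets1 and Elf1 are both ETS-family transcription factors and differed in how alike the knockdowns were. Ets1 read 4.75 and 4.68 in the controls, 6.97 and 7.10 in siPsmd14, and 5.94 and 5.45 in siDdb1, a pooled rise of 1.65 ± 0.15 (adjusted p = 0.0148). The siPsmd14 level exceeded that of siDdb1 by 1.34 ± 0.17 (adjusted p = 0.0165). Elf1 read 7.75 and 7.53 in the controls, 8.57 and 8.73 in siPsmd14, and 8.80 and 8.59 in siDdb1. Its arrays from both knockdowns overlapped, with a pooled rise of 1.03 ± 0.12 (adjusted p = 0.0265) and a difference between knockdowns of -0.05 (95% interval -0.37 to 0.28).

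Tbx4, a T-box factor of limb and allantois development, had its highest signal on a siDdb1 array. It read 5.17 and 4.86 in the controls, 6.67 and 6.79 in siPsmd14, and 7.75 and 6.69 in siDdb1. All 4 knockdown arrays were at least 1 log2 unit above the controls, while siSox2 lay below them at 4.18 and 4.58. The pooled rise was 1.96 ± 0.26 (adjusted p = 0.0404). Hoxd13, a homeobox factor of the distal limb, read 4.28 and 4.33 in the controls and rose by 0.83, with 4.72 and 4.78 in siPsmd14 and 5.58 and 5.46 in siDdb1. Foxa1, a pioneer factor of endoderm, rose by 1.19, and its knockdown arrays overlapped at 5.86 to 6.47, against 4.86 and 5.06.

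Bach1 and Bach2 encode transcriptional repressors that pair with small Maf proteins. Bach1 rose by 1.03 ± 0.12 and Bach2 by 1.40 ± 0.18. Both were higher in siPsmd14 than in siDdb1, by 0.91 (adjusted p = 0.0401) and 1.43 (adjusted p = 0.0302). The siDdb1 arrays still lay above both controls for each, at 9.42 and 9.32 against 8.89 and 8.70 for Bach1.

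**Figure D3:**
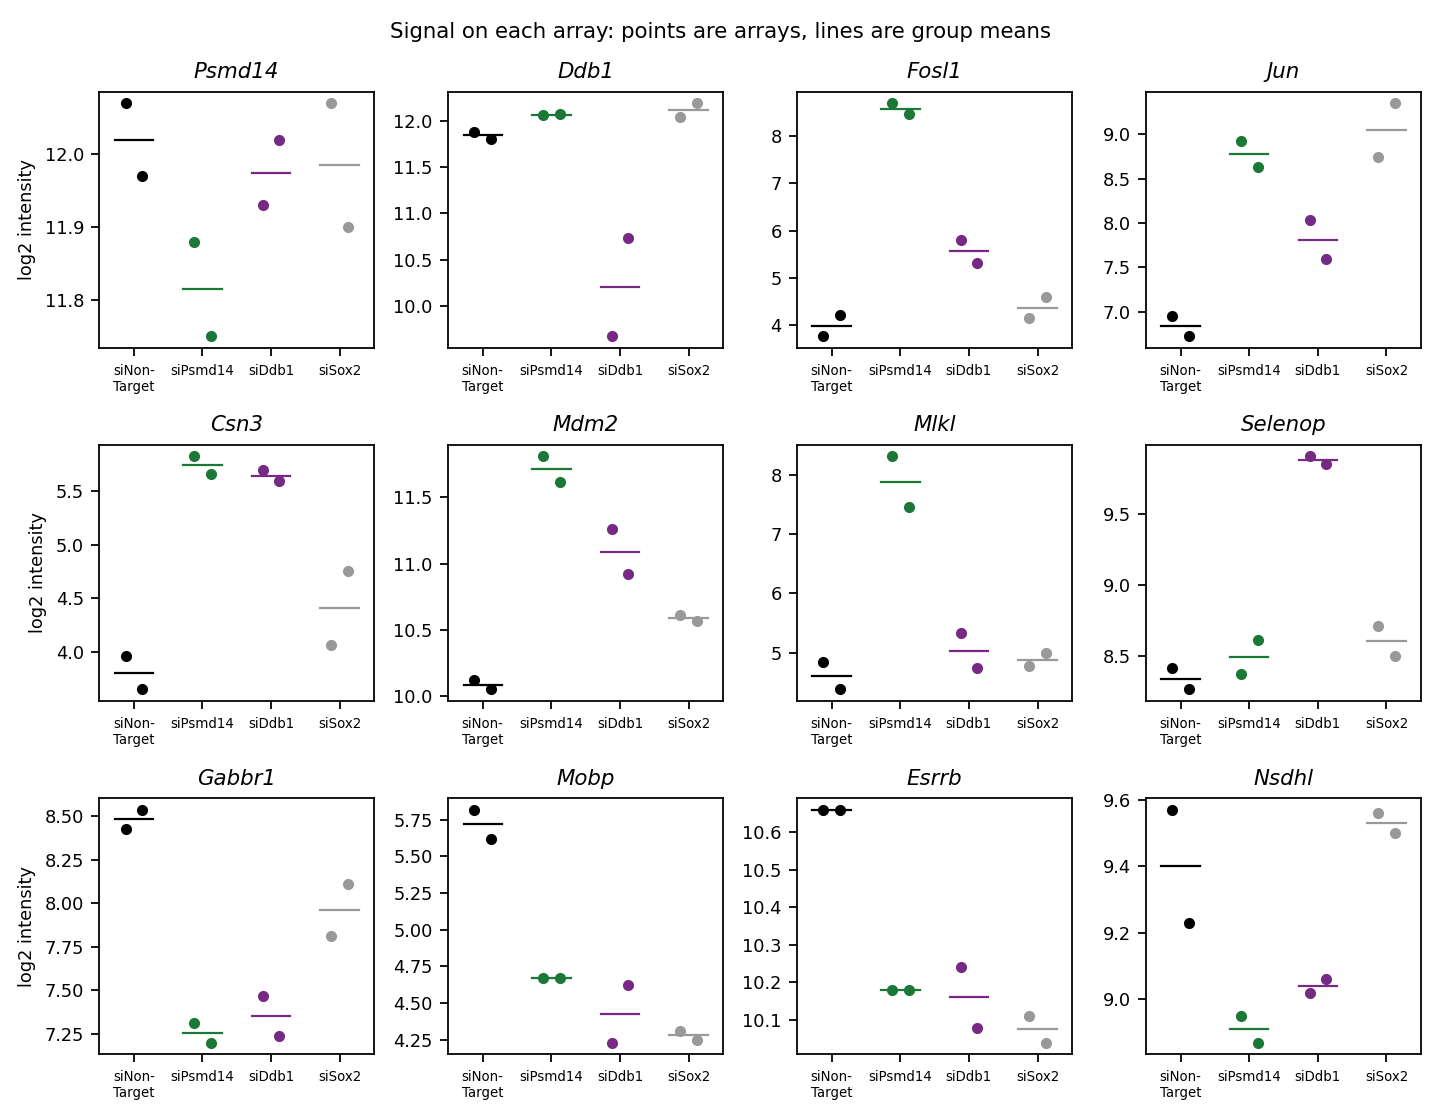
Log2 intensity (vertical axis, scaled per gene) on each array for 12 genes, with points for arrays and lines for group means. Between the pooled knockdowns, siPsmd14 is the higher for Fosl1, Jun and Mlkl, siDdb1 is the higher for Selenop, and Csn3 is alike in both. In both, Esrrb and Nsdhl lie below the controls without passing the test. For Jun the siSox2 mean (9.05) is above that of siPsmd14 (8.78).

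A group of 3 ubiquitin ligase genes rose. Mdm2 encodes the ligase that marks p53 for degradation and is itself a p53 target. It read 10.12 and 10.05 in the controls, 11.81 and 11.62 in siPsmd14, and 11.26 and 10.92 in siDdb1. Every knockdown array lay above both controls, and siSox2 lay between at 10.61 and 10.57. The pooled rise was 1.32 ± 0.13, 2.49-fold (limma adjusted p = 0.0159), and a second Mdm2 probe set was called with a rise of 1.50.

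Fbxo32, which encodes the muscle F-box protein atrogin-1, read 4.14 and 4.70 in the controls, 6.73 and 7.06 in siPsmd14, and 5.35 and 5.11 in siDdb1. It rose by 1.64 ± 0.17 (adjusted p = 0.0181), more in siPsmd14 than in siDdb1 by 1.67 (adjusted p = 0.0143). Rnf128, the RING ligase GRAIL, read 7.46 and 7.05 in the controls, 9.82 and 9.22 in siPsmd14, and 8.58 and 8.32 in siDdb1, a rise of 1.73 ± 0.25 (adjusted p = 0.0453). The siSox2 arrays, at 8.84 and 9.67, overlapped those of siPsmd14 for Rnf128 but not for Fbxo32.

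Of the 39 p53 target genes measured, Mdm2 was called. Above both controls on all 4 arrays were 20 (51.3%, beside 10.4% of all genes), and 1 (Xpc, a repair factor, -0.53) was below both. The list's median difference was 0.41 (siPsmd14 0.54, siDdb1 0.44, siSox2 0.18), against -0.01 for all genes. No member differed between the knockdowns past the test, and only 0.588% of all genes did. Without both arrays of high 18S signal the median was 0.55. By role, the feedback genes had the highest median, at 0.87, followed by genes of cell death at 0.49, arrest at 0.47, metabolism at 0.27 and repair at 0.13.

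Cdkn1a, the cell cycle inhibitor p21, is given here with the next genes as examples chosen after their values were seen. It read 8.41 and 8.45 in the controls, 9.87 and 9.62 in siPsmd14, and 9.87 and 9.25 in siDdb1. All 4 knockdown arrays lay above both controls, yet the difference of 1.22 ± 0.21 did not pass (limma adjusted p = 0.0620). The siSox2 arrays were as high, at 9.36 and 9.99. Perp, Plk2 and Apaf1 differed by 1.71, 1.59 and 1.10 without passing (adjusted p 0.0654, 0.0668 and 0.0596). Of 31 p53 targets with a promoter entry, Cdkn1a alone held a full p53 response element (3.23%, against 0.0554% of all genes), while the element was in 0 of the 35 higher genes. The p53 half-site was in 9 of the 31 (29.0%) and in 5 of the 35 (14.3%), against 7.51% of all genes. The full element was sought as a pair of half-sites, next to each other or with a short spacer between. The window is shown because Cdkn1a is the textbook p53 target, with the matched pair and its spacer in capitals. This stretch matches the letters sought, and whether p53 binds there was not tested.
Cdkn1a, chr17:29090886-29090945 (+): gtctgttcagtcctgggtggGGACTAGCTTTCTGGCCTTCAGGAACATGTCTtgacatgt

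Among the 2 cell cycle genes that rose, Cdkn2b encodes p15, an inhibitor of CDK4 and CDK6. It read 6.46 and 6.27 in the controls, 8.01 and 7.90 in siPsmd14, and 7.49 and 7.14 in siDdb1, a rise of 1.27 ± 0.14 (adjusted p = 0.0201). Cdk14, a kinase that pairs with cyclin Y, rose by 1.39, with 6.33 on both siPsmd14 arrays and 6.17 and 6.08 on the siDdb1 arrays, against 5.00 and 4.67. Of 23 mitosis genes measured none was called, and the median was -0.12. Below both controls lay 8 (34.8%, beside 11.5% of all genes), and 2 lay above (8.7%, beside 10.4%). Ccnb2 and Aurka, a mitotic cyclin and kinase, differed by -0.33 and -0.31 (adjusted p 0.278 and 0.321). Of 28 DNA replication genes 5 lay below (17.9%) and 0 above, with a median of -0.04.

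The 7 cytoskeleton and adhesion genes rose by a median of 1.53, with 2.42 in siPsmd14 and 0.70 in siDdb1. These genes also stood high in siSox2, at a median of 1.96. For 4 of the 7 (Gsn, Krt8, Lama3 and Dsp) siPsmd14 was higher than siDdb1 past the test. Over all genes 0.588% differed, and the same arrays chose these 7, so the count is a description.

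Gsn encodes gelsolin, which severs actin filaments. It read 6.80 and 6.37 in the controls, 9.65 and 9.17 in siPsmd14, 7.41 and 7.17 in siDdb1, and 8.64 and 9.31 in siSox2. Its pooled rise of 1.77 ± 0.22 (adjusted p = 0.0281) was mostly that of siPsmd14, which exceeded siDdb1 by 2.13 (adjusted p = 0.0143). Krt8, a keratin of simple epithelia and trophectoderm, read 9.92 and 9.74, then 12.51 and 12.40 in siPsmd14, 10.45 and 10.49 in siDdb1, and 12.36 and 13.47 in siSox2. It rose by 1.64 ± 0.25 (adjusted p = 0.0497) and siPsmd14 exceeded siDdb1 by 1.99 (adjusted p = 0.0306). Dsp, which encodes the desmosome protein desmoplakin, rose by 1.53 ± 0.16, with 10.15 and 10.37 in siPsmd14 and 8.32 and 8.57 in siDdb1 against 7.80 and 7.85. The siDdb1 arrays lay above both controls for all 3 genes, and by less than those of siPsmd14.

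Lama3, the laminin chain of epithelial basement membranes, rose by 1.55 ± 0.15, 5.37-fold in siPsmd14 and 1.60-fold in siDdb1. Cald1, the actin-binding caldesmon, rose by 1.51 ± 0.23, and its 4 knockdown arrays stood at 10.69 to 11.54 against 9.59 and 9.80. Nectin4, a cell adhesion molecule, rose by 1.53 ± 0.21, and Pdlim2, a PDZ-LIM adaptor, by 1.34 ± 0.19.

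In the wider lists more genes lay above both controls than below. Of 25 actin-binding genes, Gsn was called and 14 (56.0%, beside 10.4% of all genes) were above both controls with 0 below. The list's median was 0.44, against 0.90 in siSox2. Of 23 matrix and adhesion genes, Dsp was called, 9 (39.1%) were above and 0 below, with a median of 0.22. Tagln, a smooth muscle actin-binding protein that is also on the fibroblast list, differed by 1.31 without passing (adjusted p = 0.0659). Over the whole fibroblast list of 22 genes, 3 were above (13.6%) and 1 below (4.55%, beside 11.5% of all genes). The median was 0.07 and none was called. The part of other cells in these rises was not tested.

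Of 21 trophectoderm genes, Krt8 was called. Above both controls lay 10 (47.6%, beside 10.4% of all genes), and 2 lay below (9.52%, beside 11.5%). The median was 0.51, and 2.17 in siSox2, whose arrays share the controls. The 4 keratins had a median of 1.58 and all lay above, the 10 transcription factors 0.31 with 5 above, and the 7 placental genes 0.51 with 1 above. Cdx2, the trophectoderm master factor, read 5.10 and 5.19 in the controls and 5.40 to 5.68 on the knockdown arrays (0.45, adjusted p = 0.151), against 6.73 and 6.87 in siSox2. Eomes, a T-box factor of trophoblast and mesendoderm, read 6.01 and 5.88 in the controls, 6.67 and 6.81 in siPsmd14, and 7.67 and 7.04 in siDdb1 (adjusted p = 0.0527).

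The 11 signalling, membrane and transport genes rose by a median of 1.27. Tek, the angiopoietin receptor of endothelium, read 6.0 and 6.33 in the controls, 8.24 and 7.64 in siPsmd14, and 8.79 and 7.71 in siDdb1, a rise of 1.93 ± 0.28 (adjusted p = 0.0453). The knockdown arrays overlapped each other, while siSox2 lay more than 1 log2 unit below the controls, at 4.87 and 4.72. Bin1, a membrane-bending BAR protein, rose by 1.91 ± 0.22 (adjusted p = 0.0253), with 7.73 and 7.41 in siPsmd14, 6.78 and 6.44 in siDdb1, and 4.91 and 5.45 in the controls. Its other 2 probe sets differed by 0.00 and 0.06, so the rise was seen on 1 of 3 probe sets.

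Ripk4, a kinase of epidermal differentiation, was among the genes most alike in the knockdowns. It read 7.60 and 7.49 in the controls, 9.04 and 8.74 in siPsmd14, and 8.91 and 8.74 in siDdb1, a rise of 1.31 ± 0.16 (adjusted p = 0.0281) with a difference between knockdowns of 0.07 (95% interval -0.36 to 0.49). Serinc5, a membrane protein that restricts retroviruses, was the only one of the 53 with siDdb1 higher than siPsmd14 past the test. Its values were 7.20 and 7.36 in siPsmd14 and 8.18 and 8.08 in siDdb1, against 6.87 and 6.88. The neuronal kinesin Kif1a went the other way, with 6.64 and 6.27 in siPsmd14 and 5.19 and 5.11 in siDdb1, against 4.92 and 4.93.

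The other genes of this group were Cd109 and Cdcp1, which are cell surface glycoproteins, Arhgef5, Arap2, a GTPase-activating protein for Arf, Sh3kbp1, an endocytic adaptor, and Efr3b, which anchors a lipid kinase at the plasma membrane. They rose by 0.75 (Sh3kbp1) to 1.53 (Efr3b).

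Of the 11 genes for secreted proteins and enzymes, Csn3, which encodes the milk protein kappa-casein, rose most. It read 3.96 and 3.65 in the controls, 5.82 and 5.66 in siPsmd14, and 5.69 and 5.59 in siDdb1. The 4 knockdown arrays lay close together and well clear of the controls. The rise was 1.88 ± 0.19 (adjusted p = 0.0159) and the difference between knockdowns 0.10 (95% interval -0.38 to 0.59). A second probe set of Csn3 differed by -0.01.

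Fetub, a fetuin that inhibits proteases, and Prss22, a serine protease, were called mainly through siPsmd14. Fetub read 8.39 and 8.14 in siPsmd14 and 6.21 and 5.97 in siDdb1, against 5.80 and 5.83, and the knockdowns differed by 2.17 ± 0.14 (adjusted p = 0.00126). Prss22 read 7.12 and 7.09 in siPsmd14 and 5.74 and 5.61 in siDdb1, against 5.46 and 5.32, with a difference of 1.43 (adjusted p = 0.00952). For both, siDdb1 against control missed the threshold (adjusted p 0.672 and 0.671). Most genes that met the rule missed it too. Only Csn3, Hoxd13 and Serinc5 passed in siDdb1 against control (adjusted p 0.049, 0.049 and 0.0448).

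Hmgcll1, a lyase of hydroxymethylglutaryl-CoA, read 4.84 and 5.18 in the controls, 6.57 and 6.01 in siPsmd14, and 6.31 and 5.98 in siDdb1, and rose by 1.21 ± 0.18. Pla2g7, a phospholipase that hydrolyses platelet-activating factor, rose by 1.62, Akr1b10, an aldo-keto reductase, by 1.16, and Abhd3, a phospholipase, by 1.15. Metrnl, a secreted factor, rose by 1.07 and Cpe, which trims prohormones, by 1.03. The other Metrnl probe sets differed by -0.38 and -0.33 and the other Cpe probe set by -0.14, and none of these was called. Hsd17b1, an enzyme of oestradiol synthesis, rose by 1.0 and Plod2, a collagen lysyl hydroxylase, by 0.89.

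The remaining 6 higher genes were Zfp365, Cpeb1, Lrrfip1, Ier3, Fam107b and Sh3bgrl2. Zfp365, a zinc finger protein, read 6.95 and 7.60 in the controls, 9.32 and 8.90 in siPsmd14, and 9.31 and 8.53 in siDdb1, a rise of 1.74 ± 0.24 (adjusted p = 0.0445). The siSox2 arrays lay below the controls, at 6.38 and 6.43. Cpeb1, which binds cytoplasmic polyadenylation elements, rose by 1.36 and was higher still in siSox2 (6.76 and 7.28, against 5.52 to 6.44 on the knockdown arrays). Ier3, an immediate early gene, rose by 1.06, more in siPsmd14 by 1.11 (adjusted p = 0.0401).

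None of the 4 lower genes differed between the knockdowns past the test. Gabbr1, a subunit of the GABA-B receptor, read 8.43 and 8.54 in the controls, 7.31 and 7.20 in siPsmd14, and 7.47 and 7.24 in siDdb1. It fell by 1.17 on the log2 scale (SE 0.13, 2.26-fold, adjusted p = 0.0201), and a second probe set was called as well, with a difference of -0.96. The difference between knockdowns was -0.10 (95% interval -0.44 to 0.24). The siSox2 arrays lay between, at 7.81 and 8.11.

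Mobp, a myelin protein gene, read 5.82 and 5.62 in the controls, 4.67 on both siPsmd14 arrays, and 4.23 and 4.62 in siDdb1, and fell by 1.17 (adjusted p = 0.0253). Itpka, an inositol trisphosphate kinase, read 5.54 and 5.46, then 4.57 and 4.67 in siPsmd14 and 4.25 and 4.56 in siDdb1 (-0.98, adjusted p = 0.0461). Both were as low in siSox2. Gdap10 read 7.99 and 8.14 in the controls and 6.99 to 7.52 on the knockdown arrays (-0.81, adjusted p = 0.0453).

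The contrast siPsmd14 minus siDdb1 uses no control array, but the same 4 knockdown arrays and the same estimate of spread chose the 53 genes, so their share below is a description. Over all genes it called 107 (0.588%), 83 higher in siPsmd14 and 24 higher in siDdb1. Of the 53 genes, 14 (26.4%) passed: Fosl1, Gsn, Ets1, Fbxo32, Krt8, Lama3, Dsp, Bach2, Fetub, Ier3, Bach1, Prss22 and Kif1a were higher in siPsmd14 and Serinc5 in siDdb1. The other 39 missed the threshold, which does not show that the knockdowns acted alike on them. The median SE of this difference was 0.151, so that its 95% interval typically reached 0.342 to either side. The count rested on single arrays too: 186 probe sets passed with all arrays, 11 without siPsmd14 replicate 1, 884 without siPsmd14 replicate 2, 28 without siDdb1 replicate 1, 70 without siDdb1 replicate 2, 41 without siNonTarget replicate 1 and 41 without siNonTarget replicate 2.

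**Figure D4:**
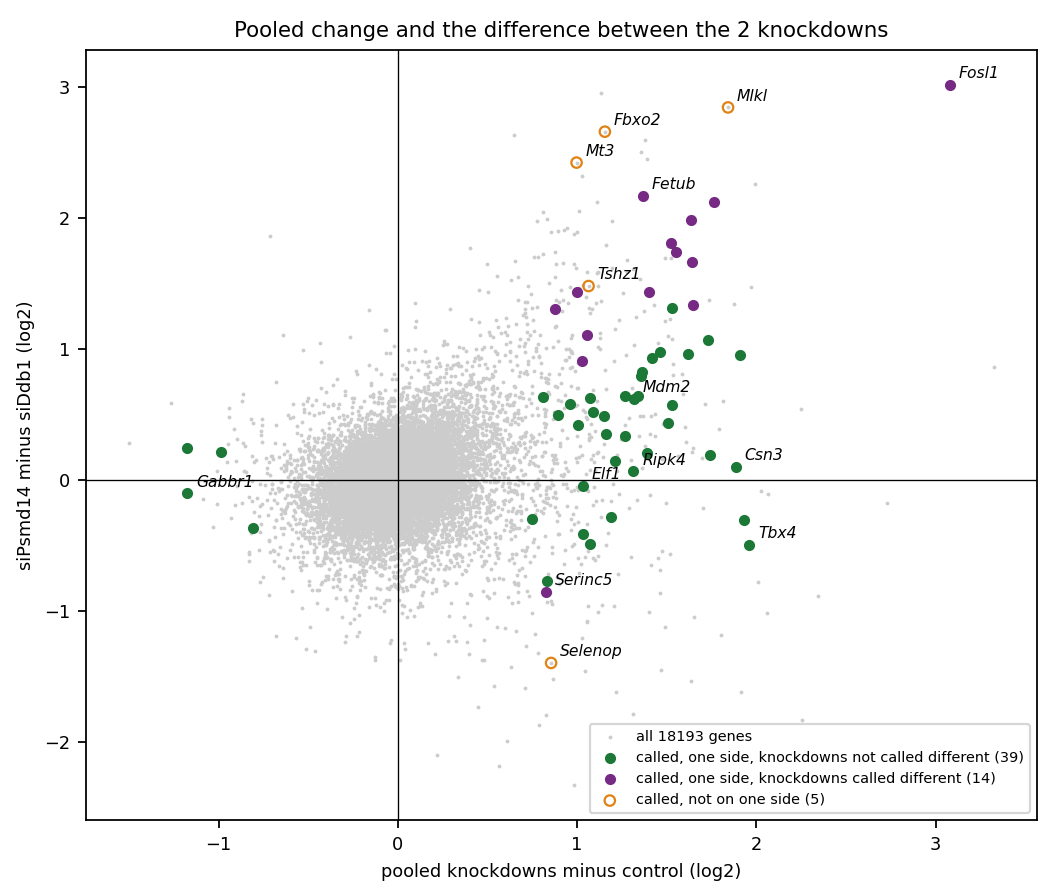
Each point is a gene, with the pooled log2 difference from control on the horizontal axis and siPsmd14 minus siDdb1 (log2) on the vertical axis. The 39 green genes missed the threshold for the difference between knockdowns and the 14 purple genes passed it, while the 5 open orange circles were called but not on one side of the controls on all 4 arrays.

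A further 5 genes passed the pooled test without lying on one side, since 1 knockdown carried the mean. Mlkl, the executioner of necroptosis, read 8.31 and 7.46 in siPsmd14 and 5.33 and 4.74 in siDdb1, against 4.85 and 4.38. Fbxo2, an F-box protein that recognises glycoproteins, read 11.49 and 11.23 in siPsmd14 and 8.64 and 8.76 in siDdb1, against 8.93 and 8.82. Selenop, the plasma selenium carrier, went the other way, with 9.91 and 9.86 in siDdb1 and 8.37 and 8.61 in siPsmd14, against 8.41 and 8.26. The other two were Mt3, a metallothionein, and Tshz1, a zinc finger factor, both high in siPsmd14.

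Genes on opposite sides of the controls in the 2 knockdowns numbered 598 of 18193. Of these, 292 were above in siPsmd14 and 306 above in siDdb1. Lying on opposite sides already sets the knockdowns apart on the same arrays, so the next count is a description. The knockdowns differed past the test for 32 of the 598, beside 107 of all genes (0.588%). Besides Fbxo2, those with the smallest p were Gfra1, AI662270, Zfpm1 and Slc48a1. Gfra1, the GDNF co-receptor, read 5.10 and 5.50 in siPsmd14 and 7.38 and 7.57 in siDdb1, against 5.65 and 5.98. The haem transporter Slc48a1 read 8.49 and 8.06 in siPsmd14 and 6.86 and 6.83 in siDdb1, against 7.08 and 7.03. Zfpm1, a cofactor of GATA proteins, differed by 1.31 and the unnamed transcript AI662270 by 1.55, both higher in siPsmd14.

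The siSox2 arrays were set beside the 53 genes as an siRNA group aimed at a gene outside the ubiquitin system. The Sox2 transcript itself read 12.10 and 11.84 there, against 12.23 and 12.47 in the controls, a difference of -0.38 that was not tested. The higher genes had a median siSox2 difference of 0.51, and 14 of the 49 lay below the control mean there. Pooled minus siSox2 called 1074 of all genes (5.90%) and 30 of the 53 (56.6%), 27 higher and 3 lower. Since the same 4 arrays chose the genes, this share is a description. Tek, Zfp365 and Tbx4 had the widest gaps among the 10 largest rises apart from Fosl1, at 3.30, 2.61 and 2.59, with siSox2 below control for each. Krt8 and Cpeb1 were lower than siSox2, by 1.45 and 1.02.

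The genes of naive pluripotency lay mostly below the controls. Of 19 genes none was called, 12 (63.2%, beside 11.5% of all genes) lay below both controls on all 4 arrays and 0 above. The median was -0.53 (siPsmd14 -0.55, siDdb1 -0.46, siSox2 -0.52), and -0.52 without both arrays of high 18S signal. Esrrb, an orphan nuclear receptor of the naive network, read 10.66 on both controls, 10.18 on both siPsmd14 arrays, and 10.24 and 10.08 in siDdb1 (-0.49 ± 0.10, adjusted p = 0.104). Fgf4, the growth factor that stem cells secrete, read 10.39 and 10.29 in the controls and 9.21 to 9.75 on the knockdown arrays (-0.83, adjusted p = 0.107). Neither gene overlapped the controls, and neither passed.

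Klf4, Prdm14 and Tfcp2l1, other factors of the naive network named after their values were seen, differed by -0.62, -0.86 and -0.59. Of 19 core and general pluripotency genes 6 (31.6%, beside 11.5% of all genes) lay below and 0 above, with a median of -0.15. Gdf3, a TGF-beta ligand, and the chromatin factor Utf1 differed by -0.41 and -0.33 (adjusted p 0.242 and 0.382). Pou5f1 differed by -0.13 and Nanog by -0.34, and neither passed.

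**Figure D5:**
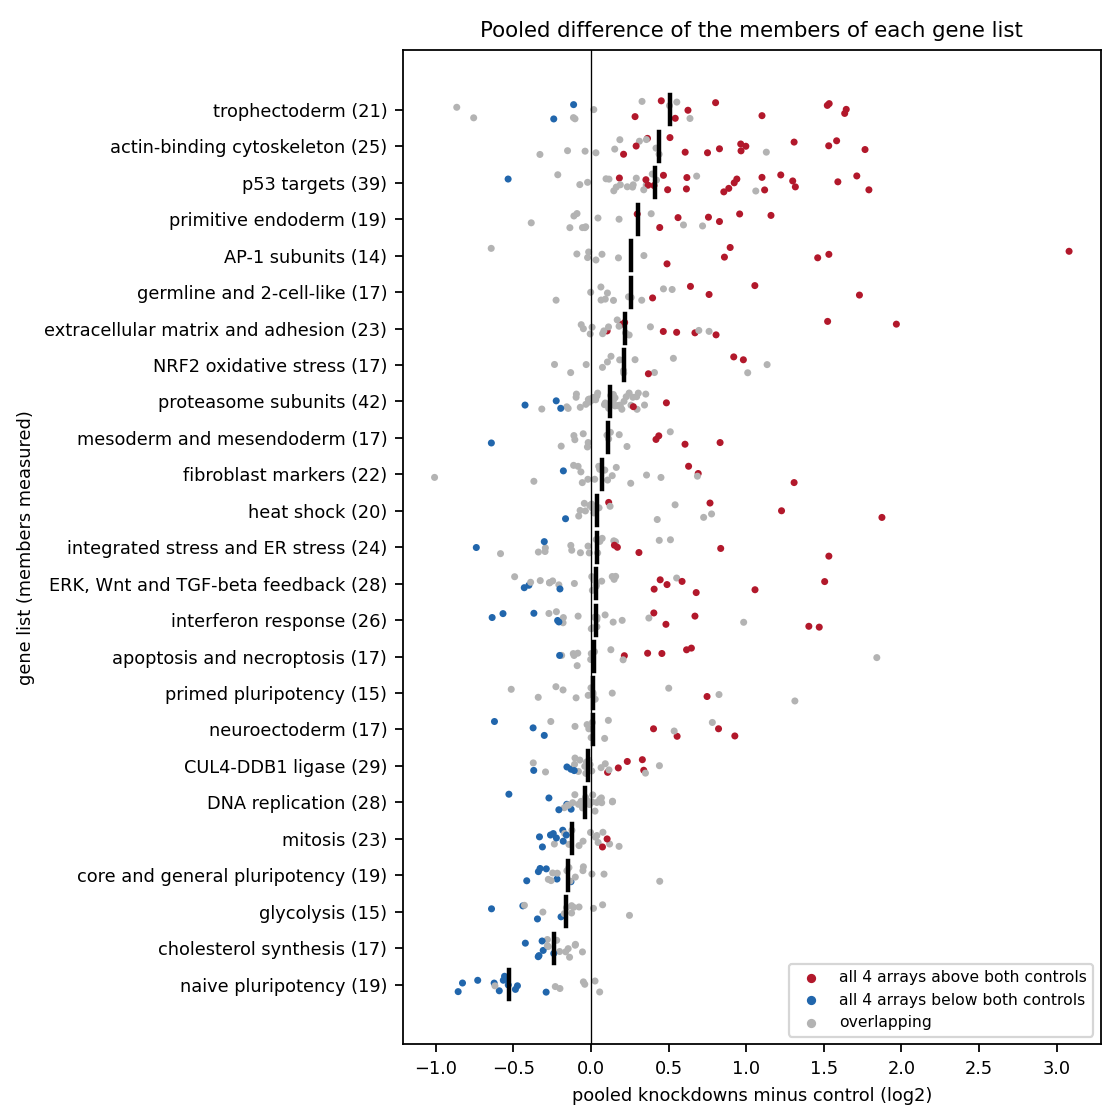
Pooled log2 difference of every measured gene in 25 lists (rows, with the number measured), with black ticks for list medians, and colour for genes on one side of both controls on all 4 arrays. The naive pluripotency list has the lowest median (-0.53), and the trophectoderm, actin-binding and p53 lists have the highest (0.51, 0.44 and 0.41).

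Cholesterol synthesis genes lay slightly below control. All 17 measured had a pooled difference below 0, with a median of -0.24. Of these, 6 (35.3%, beside 11.5% of all genes) lay below both controls on all 4 arrays and none was called. Nsdhl and Lss, 2 sterol enzymes, differed by -0.42 and -0.31 (adjusted p 0.212 and 0.299). The controls themselves differed: Nsdhl read 9.57 and 9.23 there, 8.95 and 8.87 in siPsmd14, and 9.02 and 9.06 in siDdb1. The list's median was 0.30 in siSox2. Of the 17 members, 6 differed between the pooled knockdowns and siSox2 past the test, beside 5.90% of all genes.

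No gene of the complexes of Psmd14 and Ddb1 was called in the pooled comparison. Of 42 proteasome subunits and assembly factors 2 lay above both controls (4.76%, beside 10.4% of all genes) and 3 below (7.14%, beside 11.5%). The median was 0.12 (siPsmd14 0.24, siDdb1 -0.04). On single arrays that median was 0.39 and 0.11 for siPsmd14. Psmc4, an ATPase subunit, and Psmg1, an assembly chaperone, differed by 0.49 and -0.43 (adjusted p 0.224 and 0.216). Of 29 genes of the CUL4-DDB1 ligase 5 lay above (17.2%) and 4 below (13.8%), with a median of -0.02. Its substrate receptors Ercc8 and Det1 differed by -0.37 and -0.37 (adjusted p 0.334 and 0.319).

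Stress lists were mixed. Over all genes, 10.4% lay above both controls and 11.5% below. Of 20 heat shock genes 4 lay above (20%) and 1 below (5%), with a median of 0.04. Cryab, a small heat shock protein, differed by 1.88 (adjusted p = 0.0771). Of 17 NRF2 target genes 3 lay above (17.6%) and 0 below, with a median of 0.21 (siPsmd14 0.45, siDdb1 0.07). Me1, an NADPH-producing enzyme, differed by 0.98 (adjusted p = 0.0565) and stood 1.65 above siDdb1 in siPsmd14 (adjusted p = 0.0131), as did Sqstm1, the autophagy receptor p62, by 1.47 (adjusted p = 0.0378). Of 24 integrated stress genes 5 lay above (20.8%) and 2 below (8.33%), with Ddit3 at 0.84 and Atf3 at 1.53, neither called.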

How the data were processed

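Total RNA of 8 siRNA-transfected samples was amplified and hybridised to Affymetrix arrays, per the labels' protocols. The submitters' processing notes name RMA for the intensity values that the authors deposited, and the sources used here give neither its version nor its settings. RMA usually equalises array distributions, which hides changes in total RNA. Array medians were 27.37 to 28.84 intensity units, and log2 of the deposited intensity was taken. The 64 control probe sets were left out of 45101. Of the rest, 34945 had 1 gene symbol, 932 several and 9160 none. A gene was read by its probe set with 1 symbol and the highest mean log2 value. The 8 arrays were fitted jointly, with a mean per group, by lmFit and eBayes without trend (limma 3.58.1, R 4.3.3). The pooled value is the mean of the siPsmd14 and siDdb1 means minus the siNonTarget mean. Benjamini-Hochberg adjustment ran over 45037 probe sets, at 0.05. Every adjusted p comes from this model, which had 9.02 degrees of freedom, unless another setting is named beside it. Precision is limited by how few arrays there are.

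The genes, lists and tests were chosen with earlier results of these data known. Named were Psmd14 and Ddb1, the 10 largest rises and falls, from each of 25 lists up to 4 called members or the 2 of smallest p, the 5 called genes that differed most and least between knockdowns, and 5 genes on opposite sides. Every gene that met the rule is named too. From the lists, Fgf5, Cdh2, Cubn, Hspa1b, Twist1, Tyms and Gins1 are given only here. Their pooled differences were 1.31, 0.75, 1.16, 0.77, 0.63, -0.53 and -0.27, and none was called. Of 19 primitive endoderm genes 7 lay above both controls (36.8%, beside 10.4% of all genes) and 0 below, with a median of 0.30. The primed pluripotency list had a median of -0.26 in siPsmd14 and 0.27 in siDdb1. Scripts were tested on simulated data. Of the 53 genes, 36 had 64 other probe sets, 53 of these in the same direction and 14 called. Besides those of Bin1, Csn3, Metrnl and Cpe, some differed little. These were the other probe sets of Cdk14 (-0.06 and 0.11), Elf1 (-0.07), Efr3b (0.00), Hoxd13 (0.13), Kif1a (0.19) and Lama3 (0.20).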

Additional observations from a re-analysis of the deposited data

Results flagged for a closer look

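In a group of the 4 pooled knockdown arrays, 6 of 98 genes had an array set apart from the other 3, and chance flags about 1 in 20 groups. These were Tbx4 (7.75) and Mobp (4.23) on siDdb1 replicate 1, and Nectin4 (4.83) and Arap2 (7.97) on siDdb1 replicate 2. The others were Psmc4 (12.25) on siPsmd14 replicate 1 and Ercc8 (7.46) on siPsmd14 replicate 2. All are log2 values. The rate of 1 in 20 is for 4 arrays of 1 kind. These 4 arrays hold 2 knockdowns, so that rate need not apply here.

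The test of siPsmd14 minus siDdb1 passed for 28 of the same 98 genes, beside 0.588% of all genes. Some of the 98 were named for their small p in this same contrast, so the count is a description. On the log2 scale siPsmd14 was higher for Fosl1 (3.02), Mlkl (2.85), Fbxo2 (2.66), Mt3 (2.42), Fetub (2.17), Gsn (2.13), Krt8 (1.99), Ddb1 (1.87), Dsp (1.81) and Lama3 (1.75). It was also higher for Fbxo32 (1.67), Me1 (1.65), AI662270 (1.55), Tshz1 (1.48), Col4a2 (1.48), Sqstm1 (1.47), Bach2 (1.43), Prss22 (1.43) and Slc48a1 (1.43), and for Ets1 (1.34), Zfpm1 (1.31), Kif1a (1.30), Ier3 (1.11) and Bach1 (0.91). The difference was negative, with siDdb1 higher, for Gfra1 (-2.18), Selenop (-1.39), Hes6 (-1.32) and Serinc5 (-0.85). Ddb1 is the target of siDdb1.

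Control probe sets outside the main measurement stood above both control arrays in some libraries. The 18S ribosomal RNA signal was 13.59 on siPsmd14 replicate 2, 13.28 on siDdb1 replicate 2 and 12.29 on siDdb1 replicate 1. The 3′ minus 5′ difference of Actb was 0.346 on siPsmd14 replicate 1, 0.197 on siPsmd14 replicate 2 and 0.194 on siDdb1 replicate 2.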

How the results depend on the processing

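The counts below are, in order, probe sets called in the pooled comparison and genes called on one side, which were 96 and 53. Without the dimmer 50% of probe sets they were 31 and 21, and without those of mean log2 under 5, 26 and 18. With array medians subtracted they were 192 and 115, with eBayes trend and robust 223 and 130, and with 1 probe set per gene 158 and 146. At an adjusted p of 0.01 they were 2 and 1, and with the 4 knockdown arrays as 1 group, 1 and 1. Quantile normalization gave 82 and 46, array weights 140 and 79, and a 2-fold minimum 76 and 43. The probe set of smallest p per gene gave 72 genes. With only the arrays of the groups compared, 81 genes were on one side. Without both arrays of high 18S signal, a setting chosen after seeing the data, the counts were 612 and 346.

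The siPsmd14 comparison alone called 609 probe sets (86 at 0.01, 395 at 2-fold, 1384 without the high-18S arrays). The siDdb1 comparison called 12, and 113 without those arrays. It called 0 with only its own arrays, without the dimmer 50%, without mean log2 under 5 and at 0.01, where limma gave 3897, 2156, 2057 and 3619 at an unadjusted p under 0.05. The difference between knockdowns called 186 (11 with only its arrays, 121 without mean log2 under 5, 122 with array weights, 22 at 0.01, 336 without the high-18S arrays). Pooled minus siSox2 called 1803 (1201 with only its arrays, 534 at 0.01, 703 at 2-fold).

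Leaving out each array gave 0 to 300 probe sets and 0 to 177 genes in the pooled comparison. The same gave 17 to 1295 for siPsmd14, 0 to 146 for siDdb1, 11 to 884 for the difference between knockdowns and 304 to 1719 for pooled minus siSox2. Where this left a group with 1 array, its spread was taken from the other groups. The causes were not tested, beyond the fewer arrays or probe sets that some settings leave. None of the 96 genes followed through the settings reversed its direction where it was tested. For the 53 among them the rule fixed this wherever an array was left out. Other genes named in the text, such as Jund, Cdkn1a, Klf4 and Eomes, were not followed.

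The replicate block gave 66 probe sets and 40 genes, 28 of them among the 53, and 2 probe sets for siDdb1. Deviations of same-numbered arrays correlated between -0.217 and 0.242 over the 6 pairs of groups, so the numbers were not read as a pairing. A replicate block with the siDdb1 numbers crossed, chosen after seeing the data, gave 215 probe sets, 118 genes and 53 probe sets for siDdb1.

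List medians kept their sign in all 22 settings for 18 of 25 lists. The exceptions were the apoptosis, CUL4, ERK, Wnt and TGF-beta, integrated stress, interferon, neuroectoderm and primed lists, whose medians lay near 0. The median SE of a pooled difference was 0.131, so that its 95% interval reached 0.296 to either side, and 12 of the 53 genes had a control mean under the controls' median signal.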

Other observations

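Antigen presentation and interferon genes were uneven. Of 26 interferon response genes none was called, and the median was 0.03. Above both controls on all 4 arrays lay 5 (19.2%, beside 10.4% of all genes), and 5 lay below (19.2%, beside 11.5%). Tap1, the peptide transporter of antigen presentation, read 5.59 and 5.52 in the controls, 7.08 and 6.73 in siPsmd14, and 7.45 and 6.58 in siDdb1, with all 4 knockdown arrays above both controls (1.40, limma adjusted p = 0.0697). Gbp2, a guanylate-binding protein, read 4.27 and 4.76 in the controls and 5.83 to 6.09 on the knockdown arrays (1.47, adjusted p = 0.107).

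Neural and germline genes held further values that missed the pooled threshold. Of 17 neuroectoderm genes 4 lay above both controls on all 4 arrays (23.5%, beside 10.4% of all genes). Below both lay 3 (17.6%, beside 11.5%), and the median was 0.01. Of 17 germline and 2-cell-like genes 5 lay above (29.4%) and 0 below, with a median of 0.26. Neurod1, a neurogenic factor, read 8.25 and 8.56 in the controls, 8.83 and 9.19 in siPsmd14, and 9.75 and 9.56 in siDdb1 (0.93, adjusted p = 0.0551), with siSox2 at 6.29 and 6.08. Hes6, another neurogenic factor, rose in siDdb1 by 1.44 (adjusted p = 0.0448), while siPsmd14 read 8.06 and 8.24 against 8.16 and 7.89 in the controls (0.12, adjusted p = 0.788). Ddx4, a germ cell helicase, differed by 0.64 (adjusted p = 0.118) and Zfp352, a marker of the 2-cell-like state, by 1.73 (adjusted p = 0.241). Of 15 glycolysis genes 4 lay below both controls (26.7%, beside 11.5% of all genes) and 0 above. Pfkp, a phosphofructokinase, differed by -0.64 (adjusted p = 0.0800) and Tpi1, triosephosphate isomerase, by -0.44 (adjusted p = 0.260).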
